A study of Mus musculus with 12 samples.

Results

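The core of the basement membrane was followed through 10 genes in the RNA-seq of stretched and unstretched mouse scars: the collagen IV chains Col4a1 and Col4a2, the laminin chains Lama4, Lama5, Lamb1, Lamb2 and Lamc1, the nidogens Nid1 and Nid2, and Hspg2, which encodes perlecan. Members were the rows of the count tables with these symbols, and all 10 were found among 35976 genes listed. In brief, Col4a1, Col4a2 and Nid2 rose 3.18-fold, 3.14-fold and 4.53-fold with traction in scars of wild-type mice, where 5.61% of all genes were called higher. The other 7 did not pass the test, and the 3 calls depended on single libraries. The ratio of Nid2 to Nid1 rose over both genotypes. In Tem1-deficient scars none of the 10 passed the test of traction by edgeR, nor did any of 18853 genes tested. All 10 edgeR estimates were above 0. By limma-voom 4 of the 10 passed, where 1.84% of all genes were called higher. No difference between the genotypes in the response to traction was called by edgeR, for these or any other genes.

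A basement membrane is a thin sheet of matrix beneath epithelium and around vessels, muscle fibres, fat cells and nerves. Laminin heterotrimers of an alpha, a beta and a gamma chain polymerise at the cell surface, collagen IV forms a covalently cross-linked network, and nidogens and perlecan bind to both. In skin the alpha 4 and alpha 5 laminins are known from vessels, and the collagen IV trimer of alpha 1 and alpha 2 chains is found in nearly all basement membranes.

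The mice were males of 8 to 12 weeks on a C57BL/6J background. Each received a 1.5-cm split wound on the back and carried a device from day 6, so every group was wounded and fitted with it. The device was elongated by 1 mm per day to 8 mm in the traction groups and was not elongated in the sham groups. The groups were Tem1WT/WT sham, Tem1WT/WT traction, Tem1lacZ/lacZ sham and Tem1lacZ/lacZ traction, with 3 scars in each and 12 libraries in all. Tem1lacZ/lacZ mice carry lacZ in place of the single exon of Tem1 (Cd248) in all tissues, so the deficiency was not limited to one cell type.

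Cd248 served as the check of the genotype labels. Its mean was 149.8 ± 38.3 CPM (read counts after TMM scaling to equal library size, SD, n = 3) in Tem1WT/WT sham scars and 209 ± 123 CPM in Tem1WT/WT traction scars. It was 0.122 ± 0.0592 CPM in Tem1lacZ/lacZ sham and 0.120 ± 0.124 CPM in Tem1lacZ/lacZ traction scars, so all 12 libraries followed their genotype labels. Cd248 does not check the sham and traction labels. Library totals ran from 41536788 to 64644293 counts, and each member had between 607 and 59991 counts in every library. Counting error was therefore small beside the spread between mice. One library, Tem1WT/WT traction replicate 1, stood apart in its neutrophil markers, which summed to 7053 CPM against 314 and 666 CPM in the other libraries of its group.

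Col4a1 and Col4a2 lie head to head on chromosome 8 of GRCm38, and the RefSeq promoter windows of this build, each of 250 bases before and 50 after the start, covered 7 of the 10 members. Lama4, Lamc1 and Nid2 had no window. The Col4a1 transcript starts at 11312826 on the minus strand and that of Col4a2 at 11312805 on the plus strand, so the windows of both genes share 78 bases and the first 22 bases of each transcript overlap that of the other. Short stretches of the Col4a1 and Col4a2 windows and the shared first bases are shown because the pair moved together in every comparison. The Col4a1 stretch lies outside the Col4a2 window. The windows of Hspg2 and Nid1 before their first exons are shown as examples of members with and without a called change. Capitals mark CCAAT or GGGCGG on either strand, which read ATTGG or CCGCCC when the motif is on the opposite strand.
Col4a1, chr8:11312954-11312983, minus strand: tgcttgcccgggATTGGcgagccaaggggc
Col4a2, chr8:11312773-11312802, plus strand: CCAATttgttggcgctgccccctcccctcg
First bases of both, chr8:11312805-11312826, plus strand: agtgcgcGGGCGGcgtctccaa
Hspg2, chr4:137468553-137468768, plus strand: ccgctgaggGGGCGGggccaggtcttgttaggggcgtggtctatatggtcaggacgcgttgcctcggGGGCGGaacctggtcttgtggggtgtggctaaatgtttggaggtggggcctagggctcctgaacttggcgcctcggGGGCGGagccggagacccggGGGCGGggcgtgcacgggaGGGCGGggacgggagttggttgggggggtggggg
Nid1, chr13:13437352-13437550, plus strand: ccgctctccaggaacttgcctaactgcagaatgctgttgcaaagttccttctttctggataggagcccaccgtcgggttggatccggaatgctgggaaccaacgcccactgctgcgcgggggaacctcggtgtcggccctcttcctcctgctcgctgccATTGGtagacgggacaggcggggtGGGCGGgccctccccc

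Over the whole windows, CCAAT was held by 4 of the 7 members (Col4a1, Col4a2, Lamb1 and Nid1) and by 37.4% of 32851 RefSeq promoters. GGGCGG, the letters of a GC box, was held by 6 of the 7 members, all but Lamb2, and by 35.7% of all promoters. CATTCC, the core letters of the TEAD motif, was held by Nid1 alone among the members and by 14.7% of all promoters. Both strands were searched, and none of the 3 motifs holds another. The windows of Col4a1 and Col4a2 were rich in G and C, at 74.0% and 73.7%, against a median of 52.7% over all promoters. These matches describe letters in a window only.

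Per kilobase of exon and averaged over the 12 libraries, the level was highest for Nid1 at 76.6 CPM per kb and Col4a1 at 70.2, followed by Col4a2 at 53.6, Lamc1 at 40.5, Lamb1 at 29.6 and Hspg2 at 28.2. Lamb2 at 16.6, Lama4 at 15.6, Nid2 at 12.3 and Lama5 at 4.82 CPM per kb were the lower members. Every pair of neighbours in this order differed by less than the larger of their SDs over the libraries. By these means Lama4 stood above Lama5 among the alpha chains, Lamb1 above Lamb2 among the beta chains, and of the nidogens Nid2 was the rarer. Per kilobase the Lamb2 to Lamb1 ratio ran from 0.338 to 1.36 over the libraries, so the order of the beta chains was not the same in every library. The Lama5 to Lama4 and Nid2 to Nid1 ratios reached at most 0.630 and 0.280. Values below are levels in CPM without the division by length, and fold changes are on the log2 scale.

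Col4a1, on chromosome 8 from 11198423 to 11312826, encodes the alpha 1 chain of the common collagen IV trimer. Its level in Tem1WT/WT sham scars was 187, 487 and 340.1 CPM, and in Tem1WT/WT traction scars it was 1177, 879 and 1175 CPM. In Tem1lacZ/lacZ sham scars it was 249, 144 and 201 CPM, and in Tem1lacZ/lacZ traction scars it was 226, 569 and 655 CPM. All 3 Tem1WT/WT traction scars lay above all 9 other libraries. In the Tem1lacZ/lacZ traction group replicate 1 lay within the range of its sham group and the other replicates lay above it. Col4a1 rose with traction in Tem1WT/WT mice, with a log2 fold change of 1.67 (SE 0.42) and an adjusted p of 0.0392 (edgeR quasi-likelihood test, Benjamini-Hochberg over 18853 genes).

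Col4a2, from 11312805 to 11449287 on the same chromosome, encodes the alpha 2 chain. It stood at 137, 336 and 229.9 CPM in Tem1WT/WT sham scars and at 864, 595 and 752 CPM in Tem1WT/WT traction scars. In Tem1lacZ/lacZ scars it stood at 166, 85.2 and 123 CPM with sham and at 147, 381 and 442 CPM with traction. The order of the libraries was nearly that of Col4a1, with the same 3 libraries at the top and the same library, Tem1lacZ/lacZ sham replicate 2, at the bottom. Its rise with traction in Tem1WT/WT mice was 1.65 (SE 0.43), with an adjusted p of 0.0420 (edgeR). The exons of the pair overlap by 22 bp on opposite strands, 0.295% and 0.332% of their lengths.

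Nid2, on chromosome 14 from 19751265 to 19811787, encodes nidogen-2, which links laminin to collagen IV. The 3 Tem1WT/WT sham scars had 15.5, 41.3 and 36.9 CPM and the 3 Tem1WT/WT traction scars had 92.2, 135 and 198 CPM. The Tem1lacZ/lacZ sham scars had 29.9, 14.4 and 19.5 CPM and the Tem1lacZ/lacZ traction scars had 33.0, 81.2 and 69.9 CPM. Nid2 was the one member whose traction and sham groups did not overlap in either genotype. It had the largest fold change of the 10 in Tem1WT/WT mice, with a log2 value of 2.18 (SE 0.46) and an adjusted p of 0.0311 (edgeR). Its exons overlap those of Rtraf, on the opposite strand, over 437 bp or 8.45% of their length, and how strand was handled in counting is not given in the sources used here. Rtraf, listed under its older name 2700060E02Rik, ranged from 105 to 127 CPM in Tem1WT/WT sham and from 107 to 122 CPM in Tem1WT/WT traction scars (adjusted p 0.989, edgeR).

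Nid1, on chromosome 13 from 13437551 to 13512269, encodes nidogen-1, the more abundant nidogen. Its level was 417, 516 and 626 CPM in Tem1WT/WT sham scars and 442, 731 and 1161 CPM in Tem1WT/WT traction scars. In Tem1lacZ/lacZ scars it was 551, 217 and 427 CPM with sham and 199, 510.1 and 589 CPM with traction. Traction and sham groups overlapped in both genotypes, and the log2 fold change in Tem1WT/WT mice was 0.58 with a 95% interval from -0.44 to 1.60 and an adjusted p of 0.418 (edgeR).

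Hspg2, on chromosome 4 from 137468769 to 137570630, encodes perlecan, the large heparan sulfate proteoglycan of vessel and dermal basement membranes. It was at 221, 315 and 379 CPM in Tem1WT/WT sham scars and at 528, 661 and 1232 CPM in Tem1WT/WT traction scars. In Tem1lacZ/lacZ mice it was at 215, 78.3 and 155 CPM with sham and at 167, 450.0 and 447 CPM with traction. The Tem1WT/WT traction scars again lay above all others, and Tem1WT/WT traction replicate 3 stood far above the rest. The log2 fold change in Tem1WT/WT mice was 1.40 (SE 0.48), with an adjusted p of 0.0783 (edgeR), so it missed the threshold in this comparison.

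**Figure D1:**
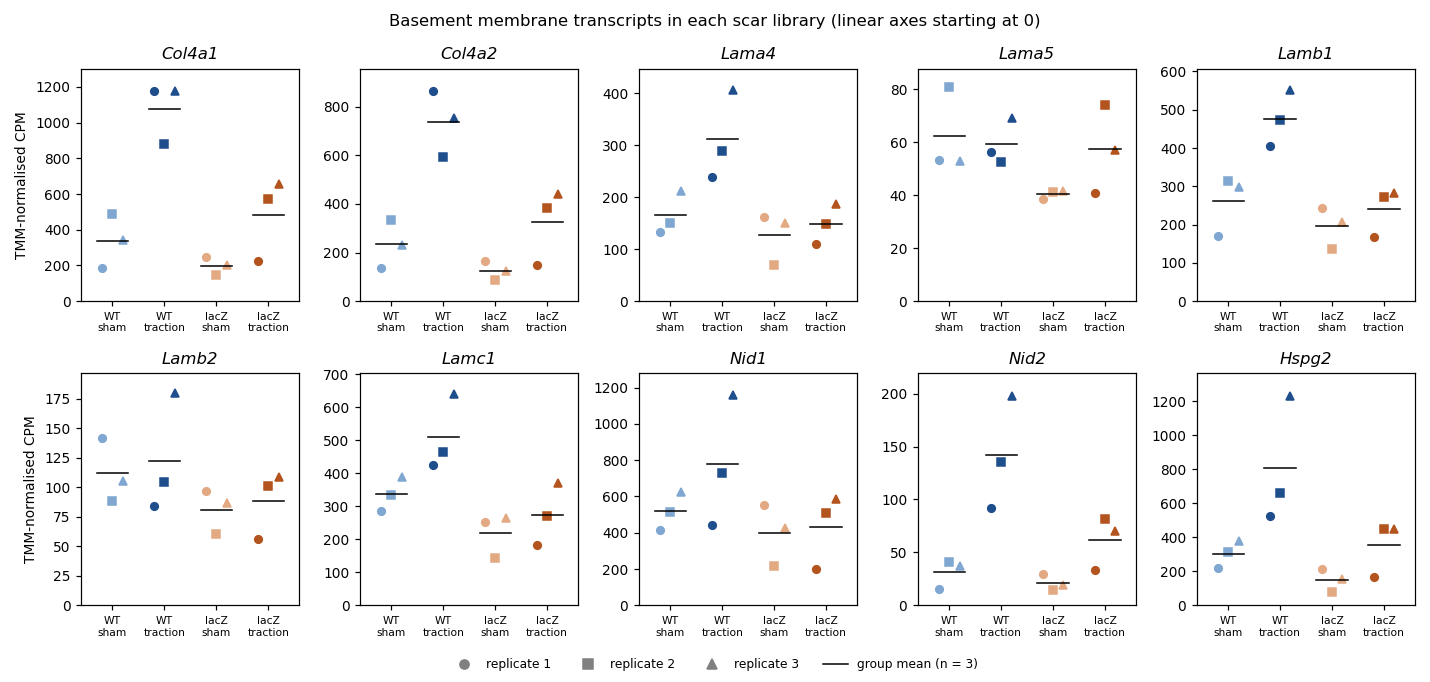
Level of each of the 10 basement membrane genes in each library (vertical axes: TMM-normalised CPM, linear from 0) for the 4 groups, with a symbol per replicate and a line at the group mean (n = 3). Col4a1, Col4a2, Nid2 and Hspg2 are highest in the 3 Tem1WT/WT traction scars, whereas Lama5 and Lamb2 overlap between sham and traction scars of Tem1WT/WT mice.

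Of the laminin chains, Lamb1, the beta 1 chain, had 169.9, 315 and 299 CPM in Tem1WT/WT sham scars and 405, 474 and 552 CPM in Tem1WT/WT traction scars. In Tem1lacZ/lacZ scars it had 244, 136 and 206 CPM with sham and 169, 272 and 281 CPM with traction. The Tem1WT/WT groups did not overlap and the Tem1lacZ/lacZ groups did. The log2 fold change of Lamb1 with traction was 0.87 in Tem1WT/WT mice with an adjusted p of 0.0788 (edgeR).

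Lama4, the alpha 4 chain of endothelial laminins, was at 132, 151 and 211 CPM in Tem1WT/WT sham and at 239, 289 and 405 CPM in Tem1WT/WT traction scars. It was at 162, 69.5 and 149.6 CPM in Tem1lacZ/lacZ sham and at 109.8, 147 and 188 CPM in Tem1lacZ/lacZ traction scars. Again the Tem1WT/WT groups were apart, with a log2 fold change of 0.92 and an adjusted p of 0.0935 (edgeR), while the Tem1lacZ/lacZ groups overlapped. Lamc1, the gamma 1 chain shared by most laminins, lay between 285 and 389 CPM in Tem1WT/WT sham and between 425 and 639 CPM in Tem1WT/WT traction scars. Its log2 fold change was 0.60 with an adjusted p of 0.192 (edgeR).

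Lama5, the alpha 5 chain of epithelial and vascular laminins, and Lamb2, the beta 2 chain, behaved otherwise. Lama5 was at 53.3, 80.8 and 53.1 CPM in Tem1WT/WT sham scars and at 56.3, 52.4 and 69.3 CPM in Tem1WT/WT traction scars, and Lamb2 was at 142, 88.5 and 105 CPM and at 83.9, 104 and 179.6 CPM in the same groups. Traction and sham overlapped for both genes. The log2 fold changes in Tem1WT/WT mice were -0.07 for Lama5, with a 95% interval from -0.57 to 0.43, and 0.13 for Lamb2, with an interval from -0.59 to 0.86. In Tem1lacZ/lacZ mice they were 0.50 for Lama5, with an interval from 0.002 to 1.004, and 0.13 for Lamb2, with an interval from -0.60 to 0.85. Neither was called there (adjusted p 0.614 and 0.929, edgeR).

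Over the members, 3 of 10 rose with traction in Tem1WT/WT mice, where 5.61% of all genes tested were called higher. The 3 genes are Col4a1, Col4a2 and Nid2. In 7 of 10 members the 3 traction scars all lay above the 3 sham scars, against 17.7% of all genes. The median log2 fold change was 0.89 over the members and -0.01 over all genes tested. DESeq2 called 6 members and 11.8% of all genes higher, and limma-voom called 1 member, Nid2, and 3.29% of all genes higher. The calls of edgeR, for the members and over all genes, depended on single libraries. With one library left out at a time, Nid2 was called in 7 of 12 fits, with adjusted p from 0.0235 to 0.122 and log2 fold changes from 1.85 to 2.45. Col4a1 was called in 3 and Col4a2 in 2 of 12 fits, with adjusted p up to 0.136 and 0.145, and the log2 fold changes stayed at 1.37 or more for both. All 3 calls were lost without each of Tem1WT/WT sham replicates 1, 2 and 3, Tem1lacZ/lacZ sham replicate 3 and Tem1WT/WT traction replicate 3. Over all genes, edgeR then called 0 of 19308, 0 of 19411, 820 of 19436, 169 of 19366 and 704 of 19430, in that order. It called 1725 of 18853 genes with all 12 libraries and 2861 of 19400 without Tem1WT/WT traction replicate 2.

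In Tem1lacZ/lacZ mice no member was called for traction, nor was any gene of the table (0% of 18853), by edgeR. At an unadjusted p under 0.05, 5 of 10 members were higher, where 5.66% of all genes were. These were Col4a1, Col4a2, Nid2, Hspg2 and Lama5. DESeq2 called no member and limma-voom called 4, which were Col4a1, Col4a2, Nid2 and Hspg2, where limma-voom called 1.84% of all genes higher. The log2 fold changes of these 4 in edgeR were 1.29, 1.37, 1.53 and 1.25, each with an adjusted p of 0.598. All 10 estimates were positive and their median was 0.41. The groups were apart for 1 of 10 members, Nid2, where 6.77% of all genes were apart with traction higher.

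The test of the difference between the genotypes in the traction response called no member and no gene (0%) by edgeR. No member had an unadjusted p under 0.05, where 8.91% of all genes did, and neither DESeq2 nor limma-voom called any member. The difference, Tem1lacZ/lacZ minus Tem1WT/WT, had its largest negative estimate in Lama4 at -0.69 on the log2 scale, with a 95% interval from -1.73 to 0.34. It was -0.38 for Col4a1, with an interval from -1.66 to 0.89, and -0.65 for Nid2, with an interval from -2.04 to 0.74. Lama5 had the 1 positive estimate of the main edgeR fit, 0.57, with an interval from -0.13 to 1.28. The intervals of 9 of 10 members held both 0 and -1, so neither an equal nor a smaller response was shown. Both traction comparisons and the interaction rest on the same sham and traction libraries.

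Averaged over the genotypes, traction was called for 4 of 10 members, all higher, against 6.50% of all genes. Nid2 rose by 1.86 (adjusted p 0.0209), Col4a1 by 1.48 (0.0249), Col4a2 by 1.51 (0.0249) and Hspg2 by 1.32 (0.0389) on the log2 scale in edgeR. Over the 6 sham scars Hspg2 had 78.3 CPM at the lowest and 379 CPM at the highest, and over the 6 traction scars it had 167 CPM at the lowest and 1232 CPM at the highest, so the pooled groups overlapped. No call for any of these 4 genes remained without Tem1WT/WT sham replicate 1, Tem1lacZ/lacZ sham replicate 2 or Tem1lacZ/lacZ traction replicate 2 or 3. Over all genes, edgeR then called 15 of 19308, 0 of 19368, 17 of 19371 and 102 of 19405, in that order. With all 12 libraries it called 1835 of 18853. With a library left out, the adjusted p reached 0.0975 for Hspg2 and 0.0670 for Nid2. The log2 fold changes with a library left out stayed between 1.12 and 2.03 over the 4 genes.

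The genotypes were compared directly in traction scars and in sham scars. With traction, all 10 members had lower edgeR estimates in Tem1lacZ/lacZ mice, with a median log2 difference of -1.03 against 0.01 over all genes, but none was called, where 0.106% of all genes were. The estimate of Lama5 changed sign, to 0.08 with upper quartile scaling or limma-voom and to as much as 0.18 with a library left out. The members' adjusted p ran from 0.0986 for Lamb1 to 0.906 for Lama5. In 7 of 10 members all Tem1lacZ/lacZ traction scars lay below all Tem1WT/WT traction scars, against 13.7% of all genes, and the same 7 had an unadjusted p under 0.05, against 15.1%. The 7 are Col4a1, Col4a2, Lama4, Lamb1, Lamc1, Nid2 and Hspg2. DESeq2 called 5 of them, Col4a1, Col4a2, Lama4, Lamb1 and Lamc1, where it called 7.64% of all genes lower, and limma-voom called none of the members. The log2 difference in edgeR was -1.16 for Col4a1, with a 95% interval from -2.07 to -0.24, and -0.05 for Lama5, with an interval from -0.55 to 0.45.

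In sham scars the estimates of all 10 members were also lower in Tem1lacZ/lacZ mice, with a median of -0.59, and none was called by edgeR, where 0.0106% of all genes were. One member, Lama5 at -0.63, had an unadjusted p under 0.05, against 6.62% of all genes, and DESeq2 and limma-voom called no member. Lama5, Lamc1 and Hspg2 had no overlap between the genotypes, which is 3 of 10 against 13.8% of all genes. Lama5 was thus lower in each Tem1lacZ/lacZ sham scar, at 38.6, 41.3 and 41.4 CPM, than in any Tem1WT/WT sham scar, while its Tem1lacZ/lacZ traction scars, at 40.9, 74.1 and 56.9 CPM, overlapped both Tem1WT/WT groups. Averaged over treatments, edgeR called no member for genotype, where 0.0530% of all genes were called, and 7 of 10 members had an unadjusted p under 0.05 with lower levels in Tem1lacZ/lacZ scars, against 16.0%. DESeq2 called 7 members lower, where it called 9.83% of all genes lower, and limma-voom called no member. Adjusted p in edgeR ran from 0.0749 for Lamc1 to 0.239 for Nid1.

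**Figure D2:**
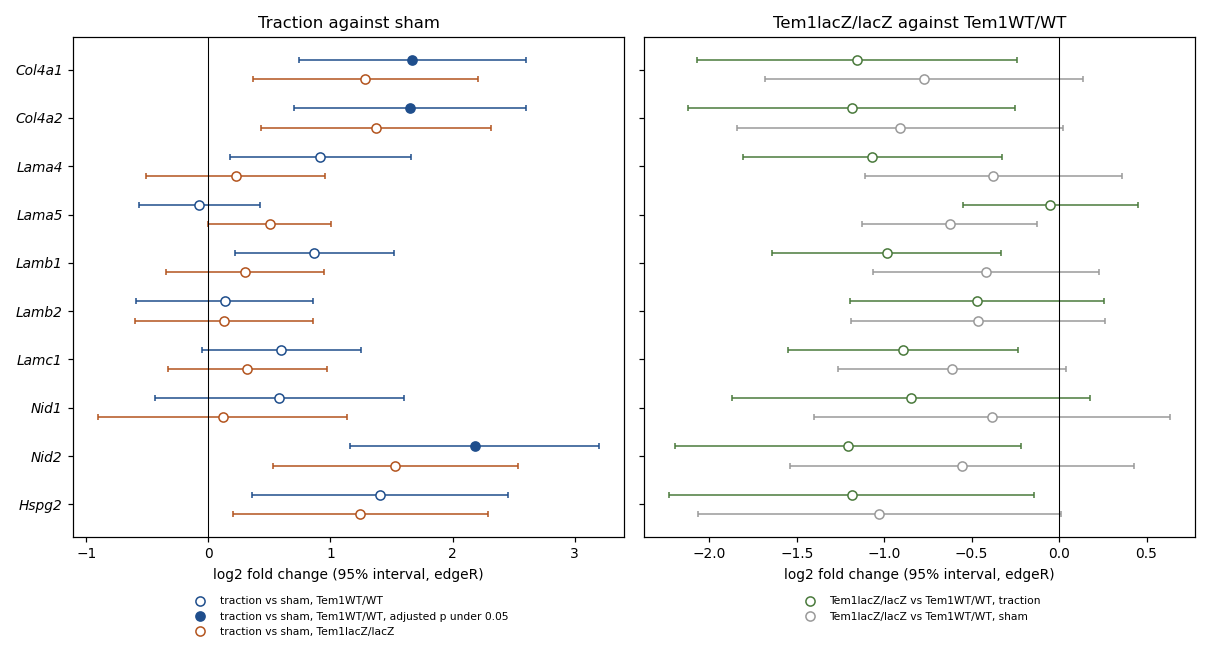
Log2 fold changes of the 10 genes with 95% intervals (horizontal axes) for traction against sham in each genotype (left) and for Tem1lacZ/lacZ against Tem1WT/WT in each treatment (right), with filled points where the adjusted p was under 0.05. Col4a1, Col4a2 and Nid2 in Tem1WT/WT mice are the filled points, and all genotype estimates lie below 0, though that of Lama5 with traction is 0.08 with upper quartile scaling or limma-voom and reaches 0.18 with a library left out.

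Within the groups, most members were high or low together in single libraries. Tem1lacZ/lacZ sham replicate 2 had the lowest level of 7 of the 10 members and Tem1WT/WT traction replicate 3 the highest level of 7. Tem1lacZ/lacZ traction replicate 1 lay below the 12-library mean for all 10 members, with a mean of -0.77 on the centred log2 scale, where the other replicates of its group had 0.25 and 0.35. Each member was set against the mean of the other 9 over the 12 libraries as a description. Pearson's r was 0.98 for Hspg2, 0.95 for Lamb1 and for Lamc1, 0.91 for Col4a1 and for Col4a2, and 0.89 for Nid2, but 0.67 for Lamb2 and 0.63 for Lama5. The libraries share depth and group effects, so no p is given. The genes most like the members' mean pattern in all 18853 tested were Irak1 (r 0.99), Cdc42bpb (0.99), Soga1 (0.98), Marcks (0.98) and Fam120a (0.98).

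**Figure D3:**
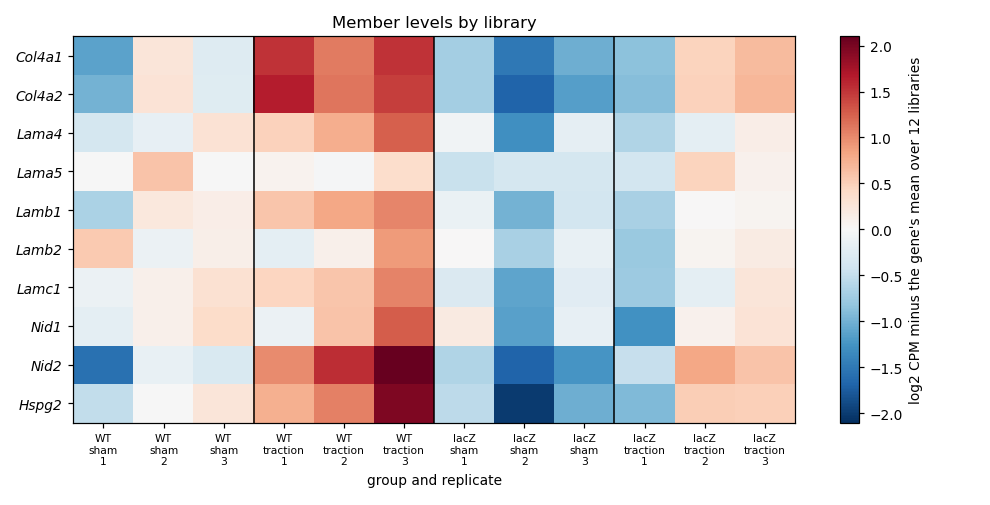
Level of each of the 10 genes (rows) in each of the 12 libraries (columns, by group and replicate), as log2 CPM minus the mean of the gene over all libraries. The Tem1WT/WT traction block is red for most members, and Tem1lacZ/lacZ sham replicate 2 and Tem1lacZ/lacZ traction replicate 1 are blue.

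Ratios between related chains do not depend on how libraries are scaled. The ratio of Nid2 to Nid1 counts was 0.0587 ± 0.0213 in Tem1WT/WT sham and 0.188 ± 0.0193 in Tem1WT/WT traction scars (SD, n = 3). It was 0.0553 ± 0.0104 in Tem1lacZ/lacZ sham and 0.148 ± 0.0255 in Tem1lacZ/lacZ traction scars. All 6 sham scars lay between 0.0372 and 0.0799 and all 6 traction scars between 0.119 and 0.209. The log2 ratio rose by 1.74 in Tem1WT/WT and by 1.42 in Tem1lacZ/lacZ mice, which gave 1.58 on average (two-sided exact permutation of treatment within genotype, p = 0.005, the smallest that 400 arrangements allow, adjusted p = 0.04 over 8 ratio tests). With a library left out at a time, it rose by 1.43 to 1.71 and passed in all 12 fits (exact permutation, adjusted p 0.02 to 0.04). Leaving out a library cannot make the sham and traction ratios overlap, so these passes add little to the full test. The difference of this ratio by genotype was -0.19 (exact permutation, p = 0.345, adjusted p = 0.44). Tem1lacZ/lacZ traction replicate 1, low in the level of every member, thus had a ratio of the traction range.

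The ratio of Col4a2 to Col4a1 stayed between 0.590 and 0.734 in the 12 libraries. It differed by 0.03 on the log2 scale with traction (exact permutation, p = 0.495, adjusted p = 0.495) and by -0.10 with genotype (exact permutation, p = 0.07, adjusted p = 0.187). The SD of the log2 ratio over all libraries was 0.09 for this pair, 0.52 for Lamb2 to Lamb1, 0.60 for Lama5 to Lama4 and 0.89 for Nid2 to Nid1.

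Lamb2 to Lamb1 was lower with traction by 0.52 on the log2 scale, which did not pass after adjustment (difference -0.52, exact permutation, p = 0.035, adjusted p = 0.14), and differed by 0.25 with genotype (exact permutation, p = 0.385, adjusted p = 0.44). Lama5 to Lama4 differed by -0.39 with traction (exact permutation, p = 0.255, adjusted p = 0.408) and by 0.42 with genotype (exact permutation, p = 0.23, adjusted p = 0.408).

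**Figure D4:**
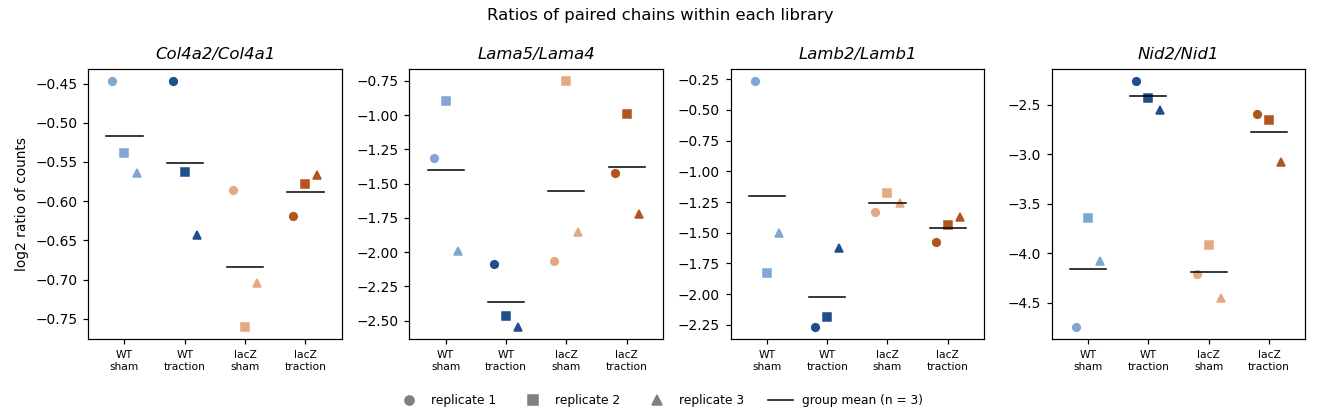
Log2 ratio of the counts of paired chains in each library (vertical axes, each with its own range) for the 4 groups, with a line at the group mean (n = 3). The Nid2 to Nid1 ratio of every traction scar lies above that of every sham scar, while the Col4a2 to Col4a1 ratio spans a narrow range.

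Further genes of the basement membrane were read from lists. Of 8 other chains of collagen IV and laminin, 3 fell with traction in Tem1WT/WT mice, where 3.54% of all genes were called lower, none rose, and the list median was -1.29. The 3 were Col4a3, Col4a4 and Col4a6, which encode the rarer collagen IV chains. Col4a3 had 8.57, 3.90 and 1.74 CPM in Tem1WT/WT sham and 0.857, 0.861 and 0.534 CPM in Tem1WT/WT traction scars, a log2 fold change of -2.65 (adjusted p 0.0334, edgeR). Col4a4 changed by -2.15 (0.0329) and Col4a6 by -1.97 (0.0281). All 3 traction scars lay below all 3 sham scars for each of these genes, opposite to Col4a1 and Col4a2. In Tem1lacZ/lacZ mice the log2 changes of the 3 genes were -0.33, -0.12 and -0.28 and none was called, and the interaction, at 2.33, 2.03 and 1.69, was not called either (adjusted p 0.548 for each). Pooled over genotypes, 2 of 8 fell, Col4a3 and Col4a6, where 3.23% of all genes did. Lama1, a laminin chain on the same list, changed by -1.98 with traction in Tem1WT/WT mice and by -0.39 in Tem1lacZ/lacZ mice. It was called in neither (adjusted p 0.0859 and 0.885, edgeR). Hair follicle, skeletal muscle and adipocyte markers had negative estimates in Tem1WT/WT mice for all 8 genes of each list (medians -1.75, -2.80 and -1.47). Of these, 2 hair follicle markers were called lower by edgeR, and no muscle or adipocyte marker was called. In Tem1WT/WT sham replicates 1, 2 and 3 the hair follicle sum was 7519, 14860 and 8931 CPM and the muscle sum 13306, 3704 and 1336 CPM. In Tem1WT/WT traction scars the hair follicle sum was 2386 to 4069 CPM and the muscle sum 339 to 2144 CPM. The part of these markers in the change of Col4a3, Col4a4 and Col4a6 was not tested.

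Of 11 genes for folding and cross-linking of collagen IV, 9 rose with traction in Tem1WT/WT mice (median 1.16), where 5.61% of all genes did, and none fell. They include the prolyl hydroxylase subunits P4ha1, P4ha2 and P4hb, the lysyl hydroxylases Plod1, Plod2 and Plod3, the collagen galactosyltransferase Colgalt1, peroxidasin Pxdn, which forms sulfilimine cross-links in collagen IV, and the lysyl oxidase Loxl2. Most of these enzymes also act on fibrillar collagens. Pxdn was at 125, 201 and 224 CPM in Tem1WT/WT sham and at 371, 378 and 701 CPM in Tem1WT/WT traction scars, a log2 change of 1.40 (adjusted p 0.0406, edgeR). Loxl2 changed by 1.45 (0.0334) and Plod2 by 1.72 (0.0355). In Tem1lacZ/lacZ mice the estimates ran from -0.15 for P4ha1 to 0.52 for Plod1, with 0.30 for Pxdn, 0.09 for Loxl2 and -0.07 for Plod2, and none of the list was called. The interaction was called for none of the 11 genes either (adjusted p 0.548 or more, edgeR), nor for any other gene tested. P4ha1 was the one gene of the list called lower in Tem1lacZ/lacZ than in Tem1WT/WT traction scars, by -1.15 (0.0335), where 0.106% of all genes were called. Pooled over genotypes 6 of 11 rose, where 6.50% of all genes did.

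**Figure D5:**
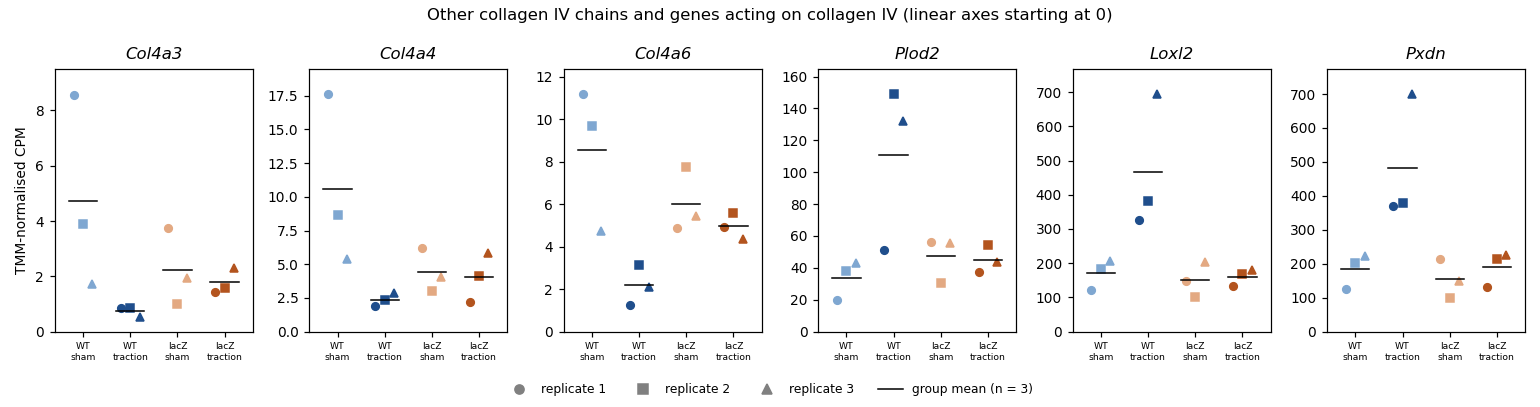
Level of the collagen IV chains Col4a3, Col4a4 and Col4a6 and of Plod2, Loxl2 and Pxdn, which act on collagen IV, in each library (vertical axes: TMM-normalised CPM, linear from 0), with a line at the group mean (n = 3). The first 3 genes are lower and the last 3 higher in all Tem1WT/WT traction scars than in the Tem1WT/WT sham scars.

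Over all genes, 5.61% were called higher with traction in Tem1WT/WT mice and 6.50% pooled over genotypes. Of 12 other proteins of vascular and stromal basement membranes, 3 rose in Tem1WT/WT mice (median 0.74), and the same number pooled over genotypes. These were Col18a1, the source of endostatin, at 1.33, Tinagl1 at 1.22 and Vwa1, a perlecan-binding matrix protein, at 1.35 on the log2 scale. Of the 12, 8 had positive and 4 had negative estimates in Tem1WT/WT mice. With upper quartile scaling 2 were called higher and 1 lower in these mice, where 1673 of 18853 genes were called, 43.9% of them higher. Vwa1 was also lower in Tem1lacZ/lacZ than in Tem1WT/WT traction scars, by -0.94 (adjusted p 0.0449, edgeR). Of the epithelial basement membrane list, Col7a1, the collagen of anchoring fibrils, rose by 1.83 on the log2 scale in Tem1WT/WT mice and was also called with the genotypes pooled. Of 11 receptors, Itga1, the alpha 1 integrin that binds collagen IV, rose by 1.07 (median 0.57) and was also called in the pooled comparison. Itgb1, its beta 1 partner, had 0.68 with an adjusted p of 0.0577 (edgeR). No gene on these 5 lists was called for traction in Tem1lacZ/lacZ mice by edgeR, where none of the 18853 genes tested was called.

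With traction, 5.61% of all genes were called higher in Tem1WT/WT mice and 6.50% with the genotypes pooled. Of 12 endothelial markers, 9 rose with traction in Tem1WT/WT mice (median 1.20) and 11 with the genotypes pooled. Their summed level was 435 to 622 CPM in Tem1WT/WT sham, 1112 to 1306 in Tem1WT/WT traction, 335 to 559 in Tem1lacZ/lacZ sham and 509 to 857 CPM in Tem1lacZ/lacZ traction scars. Of 9 pericyte markers 2 rose in each of these comparisons (median 0.65 in Tem1WT/WT mice), and of 10 fibroblast markers 2 rose in Tem1WT/WT mice (median 0.99) and 4 with the genotypes pooled. The summed pericyte level was 449.9 to 677 CPM in Tem1WT/WT sham and 730.1 to 1232 CPM in Tem1WT/WT traction scars, and 417 to 596 and 588 to 822 CPM in the Tem1lacZ/lacZ groups. The summed fibroblast level was 29587 to 49705 and 48616 to 127545 CPM in the Tem1WT/WT groups and 23763 to 41210 and 30280 to 59591 CPM in the Tem1lacZ/lacZ groups. Tem1lacZ/lacZ sham replicate 2 and Tem1lacZ/lacZ traction replicate 1, the libraries with low members, also had the lowest endothelial sums of their groups. The same was true of their pericyte, fibroblast, macrophage, adipocyte and Schwann cell sums, while their keratinocyte and hair follicle sums were the highest of their groups. In these bulk scars a change in the number of cells of a type and a change in RNA per cell cannot be told apart, and the part of these markers in the members' changes was not tested.

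Other tissue of the scar varied between libraries. Of 8 keratinocyte markers none was called for traction in Tem1WT/WT mice (edgeR), and their sum was 46807 CPM in Tem1lacZ/lacZ traction replicate 1 against 12984 to 23082 CPM in the other 11 libraries. No marker of adipocytes (8), skeletal muscle (8) or Schwann cells (6), whose basement membranes also hold these chains, was called for traction in Tem1WT/WT mice by edgeR. Their median log2 fold changes were -1.47, -2.80 and -0.53, with negative estimates for all 8 adipocyte and all 8 muscle markers, and 3 muscle markers were called lower with upper quartile scaling. The summed muscle level was 1336 to 13306 CPM in Tem1WT/WT sham and 339 to 2144 CPM in Tem1WT/WT traction scars. Summed levels ran from 21.6 to 4427 CPM for adipocytes, from 339 to 13306 CPM for muscle and from 183 to 280 CPM for Schwann cells over the 12 libraries. Of 8 macrophage markers 1 rose with traction in Tem1WT/WT mice, where 5.61% of all genes did, and sums lay between 2012 and 5206 CPM. Of 8 neutrophil markers 7 were tested and 4 rose, with the highest sum in Tem1WT/WT traction replicate 1. Ly6g, the defining neutrophil marker, was at 0 counts in 7 libraries, and no other listed marker was at 0 in any. Without Tem1WT/WT traction replicate 1 the log2 fold change of Nid2 was 2.39 and still called (adjusted p 0.0441, edgeR). Those of Col4a1 and Col4a2 were 1.58 and 1.503 and were not called (adjusted p 0.0755 and 0.0866, edgeR). In that fit 360 of 19388 genes were called, against 1725 of 18853 with all libraries. The part of these markers in the members' values was not tested.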

How the data were processed

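RNA was extracted by the authors from a part of each scar and read as stranded paired-end libraries, which they trimmed with fastp 0.20.0, aligned to GRCm38 with HISAT2 2.1.0 and counted with featureCounts 2.0.0, versions per the submitters' processing notes. The authors deposited raw counts per gene for each library, without normalization. The annotation and strand setting are not given in the sources used here.

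Genes passing filterByExpr (18853 of 35976) were fitted with edgeR 4.0.16 (TMM, robust quasi-likelihood, 1 mean per group, all 12 libraries, leaving 8 degrees of freedom). A gene was called at an adjusted p under 0.05 (two-sided, Benjamini-Hochberg, every gene tested). Intervals cover 95%. An edgeR p rests on the spread between scars within groups, estimated over all 12 libraries and moderated across genes. The p of a chain ratio is a rank among arrangements of the group labels. The script was tested on simulated counts. DESeq2 1.42.0, limma 3.58.1 (voom with sample weights), DESeq2 size factors, upper quartile scaling, other count filters, a fit not robust, a replicate block, fits of only the groups compared and leaving out each library were alternatives. R 4.3.3 and Python 3.11.15 were used.

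Chain ratios were tested by exact permutation within strata. Exon lengths came from GENCODE vM21 and promoter windows from RefSeq on GRCm38.p6. Text names the 10 members, Cd248, called genes of 5 basement membrane lists with the 2 largest changes of each, and the 5 genes most like the members' mean, with 10 marker lists given by counts. One result of the epithelial list is not reported here. The members and lists were chosen with earlier results of these data known. The other assays of the study were not analysed here.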

Additional observations from a re-analysis of the deposited data

How the results depend on the processing

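The direction of Col4a1, Col4a2, Nid2 and Hspg2 with traction was kept in both genotypes under the alternatives run, and the count of calls was not. For traction in Tem1WT/WT mice edgeR called 3 members, against 1 with all genes of at least 1 count, 1 with limma-voom, 6 with DESeq2 and 0 when only the groups compared were fitted. Over all genes edgeR called 1725 of 18853 in the main fit and 1011 of 28591 with at least 1 count. It called 0 of 17762 when only the groups compared were fitted. In Tem1lacZ/lacZ mice limma-voom called 4 members for traction, and DESeq2 called 5 for genotype with traction and 7 for genotype over both treatments, where edgeR called 0. Of all genes, DESeq2 called 11.8% higher with traction in Tem1WT/WT mice and 7.64% and 9.83% lower for these genotype comparisons, and limma-voom called 3.29% and 1.84% higher with traction in Tem1WT/WT and Tem1lacZ/lacZ mice. With 1 library left out at a time the count of members was 0 to 3 for traction in Tem1WT/WT mice and 0 to 5 with the genotypes pooled. Over all genes the count then ran from 0 to 2861 and from 0 to 3422. The same-numbered scars came from different mice and did not deviate together (r from -0.324 to 0.25), so the numbers do not pair them. With a replicate block 2 members were called in Tem1WT/WT mice, Col4a1 and Nid2, and 4 with the genotypes pooled. Of 18853 genes, 1467 and 1492 were called with this block.

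Estimates near 0 turned sign. For traction in Tem1lacZ/lacZ mice Nid1 was -0.0028 with the replicate block, and without single libraries it ran from -0.17 to 0.51, Lama4 from -0.040 to 0.48 and Lamb2 from -0.048 to 0.41. In Tem1WT/WT mice Lama5 ran from -0.19 to 0.18 and Lamb2 from -0.24 to 0.34, and Lamb2 from -0.039 to 0.27 with the genotypes pooled. Lama5 for genotype with traction was 0.078 with upper quartile scaling and 0.082 with limma-voom, and -0.27 to 0.18 without single libraries. For the interaction Lamb2 was 0.064 with upper quartile scaling, 0.050 with all genes of at least 1 count, 0.024 with at least 10 counts in every library, 0.14 with limma-voom and 0.044 with the block. Limma-voom gave 0.12 for Col4a2 and 0.24 for Hspg2. Without single libraries the interaction ran from -0.76 to 0.0092 for Col4a1, -0.64 to 0.12 for Col4a2, -0.21 to 0.41 for Lamb2 and -0.42 to 0.32 for Hspg2. Ratios without single libraries ran from -0.13 to -0.076 (Col4a2 to Col4a1, genotype), -0.67 to -0.28 (Lamb2 to Lamb1, traction) and 0.10 to 0.49 (Lamb2 to Lamb1, genotype). They passed the threshold in exact permutation tests (adjusted p 0.02 for each) without Tem1WT/WT traction replicate 3, Tem1WT/WT sham replicate 2 and Tem1WT/WT sham replicate 1, in that order, and not otherwise. The cause of these changes was not tested.

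Upper quartile scaling moved the median of all genes by -0.12 for traction in Tem1WT/WT mice and by 0.14 for genotype with traction. The share of higher genes among those called for traction in Tem1WT/WT mice was 61.3% in the main analysis, 43.9% with upper quartile scaling and 83.0% with limma-voom. With upper quartile scaling 3 skeletal muscle markers and 1 of the 12 other vascular and stromal basement membrane genes were called lower in these mice. None on these 2 lists was called lower in the main analysis.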
